A study of Mus musculus with 4 samples.

Results

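In a list of N6-methyladenosine (m6A) peaks of mouse natural killer (NK) cells, 1059 peaks carried the label 5′ UTR and ran over more than 10000 nt of the genome from their first to their last base. They were chosen by these conditions alone, out of 20727 distinct peaks in 12351 genes, and they belonged to 1046 genes. The peaks of the list came from 4 libraries in 2 groups of splenic NK cells of C57BL/6 mice, with 2 m6A immunoprecipitates and 2 inputs of poly(A) RNA that had met no antibody. All of these cells were wild type, and per the methods of the study they had been expanded in the animals with a plasmid that expresses IL-15, pLIVE-IL-15, before sorting. The list joined all libraries and gave 1 fold enrichment, immunoprecipitate over input, and 1 p-value per peak. It held no value per sample, so the spread between replicates and the depth of the libraries are unknown, and everything below describes this list without a test.

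m6A is a methyl mark that a METTL3-METTL14 complex places on adenosines of messenger RNA, mostly within the sequence DRACH (D stands for A, G or T, R for A or G, and H for A, C or T). It is best known from long internal exons, the region around the stop codon and the 3′ UTR, where reader proteins such as the YTHDF family bind it and affect the decay and translation of the message. The 5′ UTR precedes the start codon, and the introns that follow the first exons of a mammalian gene are often its longest. A peak caller that works on exons joins neighbouring enriched stretches across the introns removed by splicing, so the genomic width of a peak counts introns from which no fragment of the mature message comes.

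The simplest of the wide peaks joined 2 exons across 1 intron and held the annotated start codon. There were 45 such spans with a median fold enrichment of 7.59 (interquartile range 2.51 to 19.0), of which 21 had a fold enrichment under 5. A fold enrichment of at least 5 was reached by 34.6% of all distinct peaks and 88.2% of all wide peaks. The 45 spans held a median of 394 exonic nt around an intron with a median of 17916 nt. In 44 of the 45 it was the first intron of the transcript. The exon junctions of the 8 with the most negative log10 p are shown because they are the sequence that a read would cross in the mature RNA while the peak on the genome covers the intron. Each line has the last 15 bases of the upstream exon in lower case and the first 15 bases of the downstream exon in capitals, 5′ to 3′ on the strand of the gene, from the RefSeq genome sequence of GRCm38.
Gm20498: cgagaggaccttcggGGCTGGGCTTCAACA
Gnai2: agttgcttctgttagGTGCTGGAGAGTCAG
Mn1: ccaacaacaaagaagCCCATGACCACCCCA
Itm2b: gcggtggattgcaagGACCCGGGTGACGTG
Psap: gccttctggccaccgCTCTGACCAGCCCTG
Basp1: aggcacccaaagccgAACTCCAAGATGGGA
Naa11: agagcatttcctgagCATCGCTGGCCTTCA
Papola: ggagacgatgccgttTCCAGTTACAACGCA

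All 8 joined introns began with GT and ended with AG, and each was the first intron of its transcript. In Gnai2, an inhibitory G protein alpha subunit, the peak at chr9:107620445-107635367 on the minus strand had a fold enrichment of 6.32, at a log10 p of -161. It held 286 exonic nt of the coding transcript, 150 of them 5′ UTR and 136 coding, on both sides of an intron of 14637 nt. In Psap, which encodes the precursor of the saposins, the peak at chr10:60277687-60291740 on the plus strand joined 96 nt and 102 nt of 2 exons across 13856 nt, and its fold enrichment was 1.38 (log10 p -46.4). In Basp1, a membrane protein known from growing axons, the peak at chr15:25364536-25413615 on the minus strand crossed 48633 nt, and its fold enrichment was 2.91. Basp1 was the one of the 8 whose start codon lay in the downstream exon, 9 nt past the junction. Mn1, a transcriptional coactivator, had the longest exonic part of the 8, with 5632 nt, at chr5:111417442-111455805 on the plus strand, and a fold enrichment of 80.3. The span of Itm2b, a small transmembrane protein, lay at chr14:73368423-73385271 on the minus strand, had a fold enrichment of 1.92 and reached 5 nt into the second exon. Papola, a poly(A) polymerase, had its span at chr12:105784694-105799730 on the plus strand with a fold enrichment of 3.79. Naa11, an N-terminal acetyltransferase subunit, had its own at chr5:97382198-97392379 on the minus strand with a fold enrichment of 108. Gm20498, a coding gene model that overlaps Synj2bp, had a fold enrichment of 192 at chr12:81510908-81532791 on the minus strand, and the peak assigned to Synj2bp over nearly the same bases had a fold enrichment of 2.27.

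In these 8 spans DRACH was searched on the strand of the gene in the spliced exons of the coding transcript, where a match can cross the junction. Each of the 8 held at least 1 match, from 1 in Itm2b to 88 in Mn1. Where the match nearest to the start codon lay with its surroundings in 1 exon, it is shown with the 5 bases of the match in capitals, because it places the motif relative to the 5′ UTR.
Gnai2: cgtgagcgccgaGGACAaggcggcagccga
Mn1: tatgtttgggctGGACCaattcgagcccca
Naa11: cgacgccaggatGAACAtccgcaatgcccg
Papola: gcgggggggaagTGACTgggcggtgccggc

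The adenosine of the match lay 25 nt downstream of the A of the start codon in Gnai2 (chr9:107635177-107635206), 13 nt downstream in Mn1 (chr5:111418165-111418194) and 4 nt downstream in Naa11 (chr5:97392278-97392307). In Papola (chr12:105784867-105784896) it lay at -26, in the 5′ UTR. A match shows only that the letters are there. Over whole sets of peaks, matches were counted within each merged exon of the gene, so that none crossed a junction. Counted so, 99.0% of the wide peaks and 89.9% of all distinct peaks held at least 1 in their exonic part. Over the exonic parts of all wide peaks there were 20.3 DRACH matches per kb, against 20.1 in all distinct peaks, 17.3 in narrower 5′ UTR peaks and 21.3 in peaks over 10000 nt with another label. GGAC, a well known core of the motif, occurred 3.79 times per kb in the wide peaks and 3.59 times per kb in all distinct peaks.

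**Figure D1:**
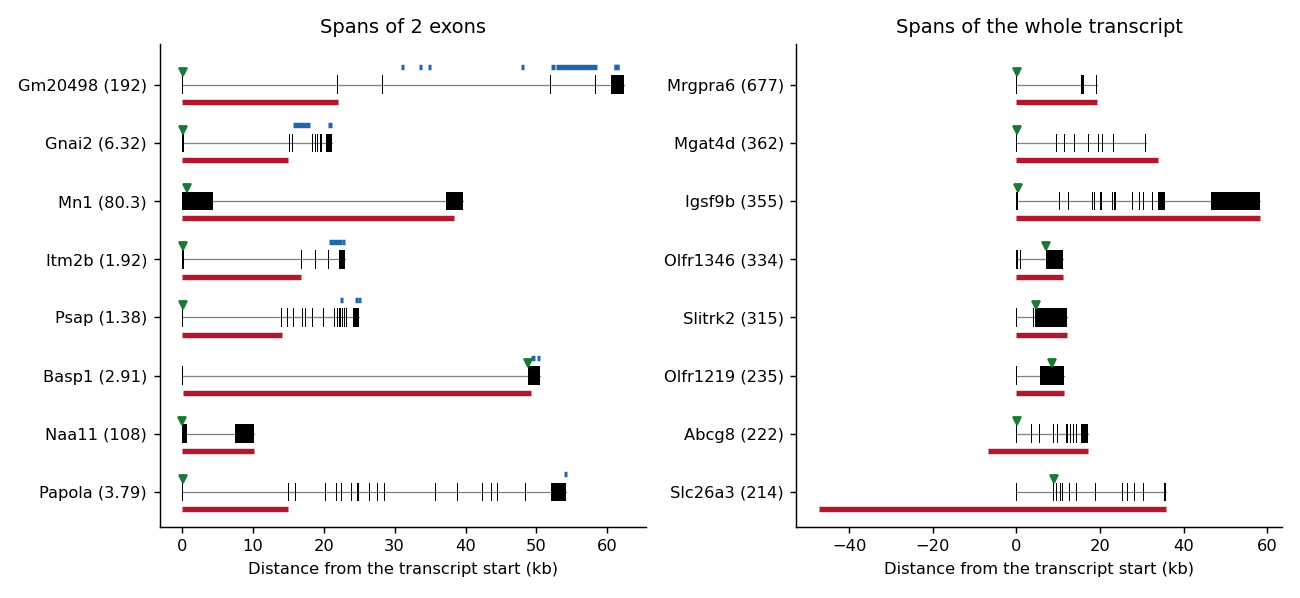
Map of 16 wide 5′ UTR peaks, with the distance from the start of the longest coding transcript in kb on the horizontal axis and the fold enrichment behind each gene symbol. Black boxes are exons (the shortest are widened to be visible), grey lines introns, green triangles start codons, red bars the wide peak and blue bars other peaks of the gene. In the left panel the red bars end in the second exon, while in the right panel, which shows the 8 spans under 100 kb with the highest fold enrichment among those with both ends in exons of the assigned gene and 90% or more of its exonic length, they cover the transcript. The spans of Abcg8 and Slc26a3 begin upstream of it, in exons of other transcripts of these genes.

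The width of the 1059 peaks ranged from 10003 to 2270724 nt, with a median of 38484 nt (interquartile range 18384.5 to 115066 nt). In 292 of them (27.6%) it was over 100000 nt, and in 59 over 500000 nt. Exons of the assigned gene made up a median of 4.69% of the span, or 2729 nt (interquartile range 839.5 to 5651.5 nt). In the 1029 peaks whose gene had a coding transcript, a median of 5 introns lay wholly inside the span. In the 879 with at least 1 such intron, the longest had a median of 15059 nt (interquartile range 6631 to 40175.5 nt), and with the others counted as 0 the median was 10879 nt. No whole intron lay in 14.6%, 1 intron in 11.8%, 5 or more in 51.8% and 10 or more in 309 of them, up to 104. The first intron lay inside in 82.0%, and where any intron did, the longest was the first intron in 49.0%, the second in 18.3% and the third in 10.5%.

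Most of these spans touched a 5′ UTR, but little of the exonic sequence they held was 5′ UTR. The annotated start codon lay within 878 of 1029 spans (85.3%, 95% Wilson interval 83.0 to 87.4%), the stop codon in 55.0% and both in 53.7%. A share of 91.3% touched the 5′ UTR of the longest coding transcript. Of their exonic bases on that transcript 8.64% were 5′ UTR, 56.8% coding sequence and 34.5% 3′ UTR, against 29.95% 5′ UTR in the 2714 peaks of the same label with at most 10000 nt and a coding transcript. The centre of the exonic part could be placed in 989 spans and lay in the 5′ UTR in 16.4%, in the coding sequence in 65.7% and in the 3′ UTR in 17.9% of them, whereas in 2457 narrower 5′ UTR peaks 56.9% of centres lay in the 5′ UTR. Their exonic parts had a median GC content of 49.6%, closer to the 47.7% of all distinct peaks than to the 61.0% of narrower 5′ UTR peaks. An intron split the 5′ UTR in 42.6% of the transcripts of the wide peaks and in 36.3% over all distinct peaks.

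**Figure D2:**
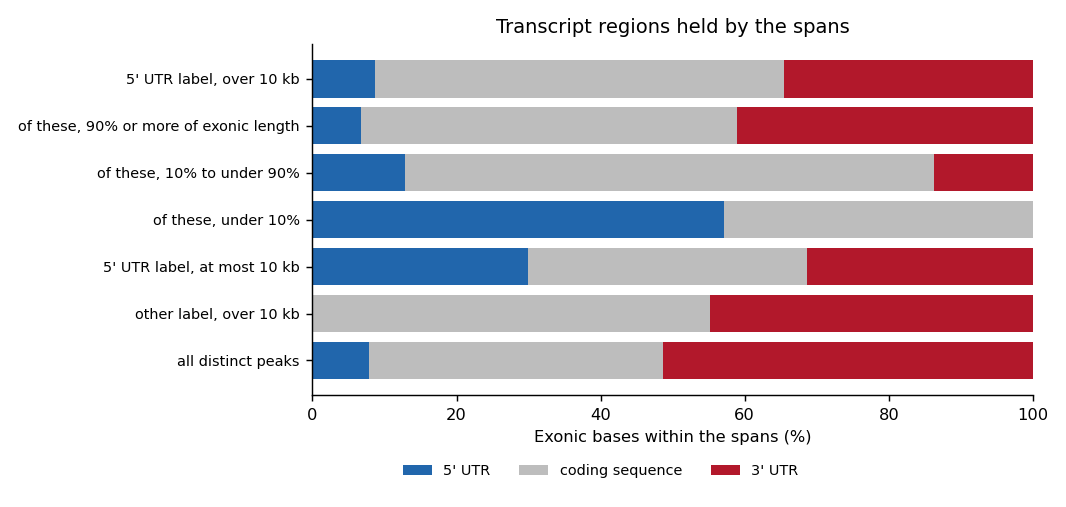
Share of exonic bases, in percent, in 5′ UTR, coding sequence and 3′ UTR of the longest coding transcript, summed over the spans of each set. The 5′ UTR takes 8.64% in wide 5′ UTR peaks, 57.1% in those that held under 10% of the exonic length of their gene, and 29.95% in narrower 5′ UTR peaks.

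The fold enrichment of the wide peaks had a median of 19.0 (interquartile range 9.48 to 43.6) and ran from 1.15 to 677. The median was 3.79 in the 2774 narrower 5′ UTR peaks, 13.3 in the 592 peaks over 10000 nt with another label and 2.66 in all distinct peaks. A fold enrichment of at least 5, which the study used to choose genes, was reached by 934 of the 1059 (88.2%, 95% Wilson interval 86.11 to 90.003%), beside 34.6% of all distinct peaks, 41.7% (39.9 to 43.6%) of narrower 5′ UTR peaks and 76.7% (73.1 to 79.9%) of wide peaks with another label. The p-values differed far less. A peak-calling p under 0.001 was found in 689 of the 1059 (65.1%, 62.1 to 67.9%), beside 61.5% of all distinct peaks, and the median log10 p was -5.13 against -4.10. The intervals cover counting error among peaks only, not the spread between libraries.

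**Figure D3:**
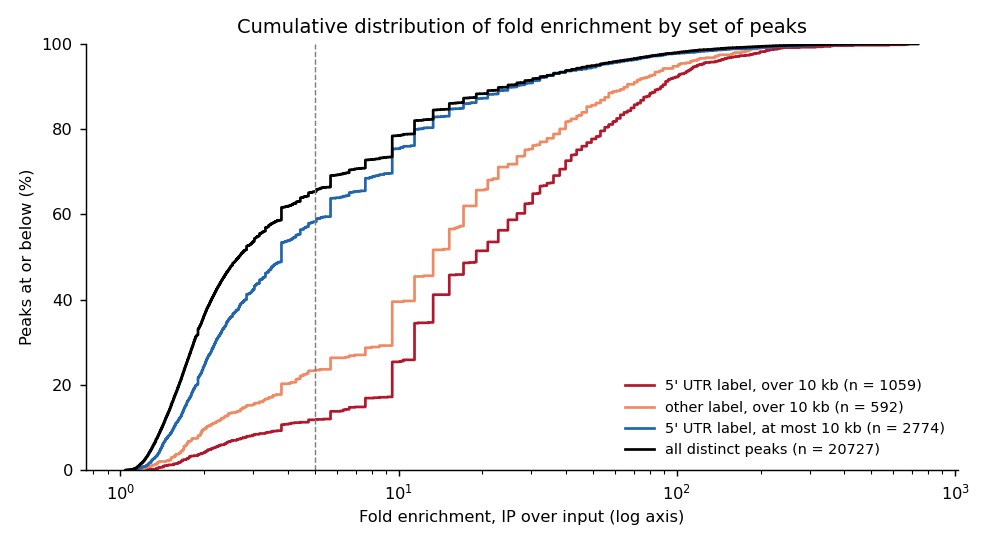
Cumulative share of peaks, in percent, at or below each fold enrichment (log axis) for 4 sets of peaks, with a dashed line at 5. Wide 5′ UTR peaks lie farthest to the right with a median of 19.0, peaks over 10 kb with another label follow at 13.3, narrower 5′ UTR peaks at 3.79 and all distinct peaks at 2.66.

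Many of the wide peaks shared exactly the same values. The pair of fold enrichment 11.4 and log10 p -2.09 was listed for 85 of them, 9.48 with -1.69 for 82, 13.3 with -2.50 for 64 and 15.2 with -2.91 for 45. These 4 pairs took 276 of the peaks (26.1%), and 18 pairs held by at least 10 peaks each took 539 (50.9%). The same pairs occurred outside the wide peaks, since 9.48 with -1.69 was listed for 4.08% and 11.4 with -2.09 for 2.57% of all distinct peaks. Among the 934 wide peaks with a fold enrichment of at least 5, log10 p fell as the fold rose (Spearman's rank correlation -0.93 across peaks), and among the 125 with a lower fold it did not (rank correlation 0.30). These correlations, like those that follow, are across peaks of 1 list made from the same libraries, and peaks are not independent replicates. What lies behind the repeated values was not tested. In the 3 most frequent pairs, and in 15.2 with -2.91, the p-value was above 0.001.

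The fold enrichment was related to how much of the gene the span held. Across the 1059 peaks Spearman's rank correlation with fold enrichment was 0.44 for the exonic length in the span, 0.35 for its share of the exonic length of the gene and 0.26 for the genomic width. In 512 peaks (48.3%) the span held 90% or more of the gene's exonic length, with a median fold enrichment of 26.6 and 96.5% at 5 or more. In 376 it held at least 10% and under 90%, with a median of 18.5 and 87.2% at 5 or more. In the 171 with under 10% the median was 7.59, and 65.5% reached 5. In this last set a median of 271 exonic nt lay in the span, 57.1% of the exonic bases were 5′ UTR, the median GC content was 57.5% and the start codon lay inside in 80 of 170 (47.1%). In exonic length, GC content and start codons they were the closest of the 3 sets to narrower 5′ UTR peaks, for which these were 238 nt, 61.0% and 50.5%. In the first set both codons lay inside in 478 of the 489 spans with a coding transcript (97.8%), with a median of 8 introns.

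**Figure D4:**
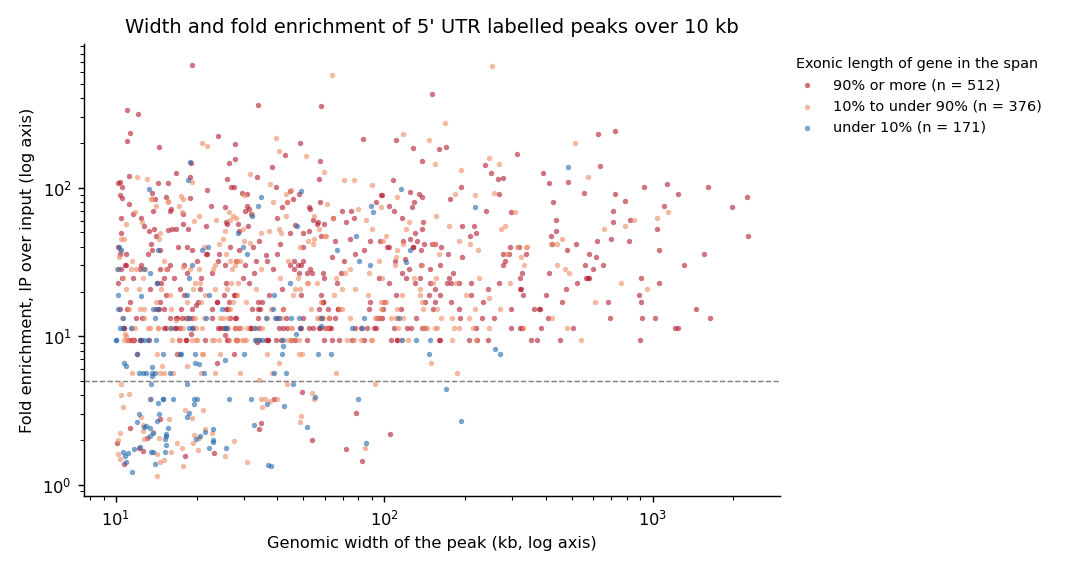
Fold enrichment against genomic width in kb (both log axes) for the 1059 wide 5′ UTR peaks, coloured by the share of the exonic length of the gene within the span, with a dashed line at a fold enrichment of 5. Peaks under the line have a median width of 18029 nt, against 38484 nt for all, and points line up in rows at repeated values such as 9.48 and 11.4.

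The 10 highest fold enrichments ran from 241 to 677. Mrgpra6, a receptor of sensory neurons, had the highest, 677 (log10 p -163), over 19214 nt at chr7:47185707-47204920, which held all 3 exons. Stox2, a winged-helix protein, reached 658 over 252301 nt with 3 of 4 exons, and a second peak of the gene with the label 3′ UTR had 9.48. Eva1c, a lectin-type transmembrane protein, reached 578 with a log10 p of -164. Runx1t1, a transcriptional corepressor, had 429 over all 12 exons, and Igsf9b, an adhesion protein of inhibitory synapses, had 355 with a log10 p of -222 over all 20 exons and 16686 exonic nt. Mgat4d reached 362, the olfactory receptor Olfr1346 reached 334, the synaptic protein Slitrk2 reached 315, Mcc reached 275 and the potassium channel subunit Kcnma1 reached 241. Of the 10, Stox2, Eva1c and Mcc were the ones whose span held less than 90% of the exonic length.

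The 10 widest spans ran from 1243885 to 2270724 nt. Ptprd, a receptor tyrosine phosphatase that organises synapses, held the widest, at chr4:75941238-78211961, with all 36 exons, 22822 exonic nt and a fold enrichment of 47.4 (log10 p -10.3). Cntnap2, a neurexin-like protein of axons, followed with 2244857 nt, all 24 exons and a fold enrichment of 87.2. Nrxn3, a presynaptic neurexin, had 102, Cntn5 91.0, Pcdh15 36.0, Lrrc4c 30.3, Csmd1 13.3 and Lingo2 11.4. All of these 8 spans ended on both sides in exons of the named gene. The span assigned to Flrt3, a gene of 3 exons, ran over 1971353 nt from and to exons of Macrod2, in whose intron Flrt3 lies.

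The 10 most negative log10 p values ran from -163 to -615. Zbtb11 had -615, with a fold enrichment of 3.53, and is taken up with the spans that join genes. Klra7, an inhibitory receptor of the Ly49 family on NK cells, had 2.76 at a log10 p of -244 at chr6:130218605-130233263 over all 8 exons. Its close relatives in the Ly49 cluster share sequence with it, so the assignment of its reads is uncertain. S100a6, a small calcium-binding protein, had 10.1 and -169, and Atox1, a copper chaperone, had 17.1 and -203 over all 4 exons. The non-coding 1700095A21Rik had 197 and -248, Gm20498 192 and -214, and C130026I21Rik, whose gene lies among near-identical copies, 114 and -188. The span of 1700095A21Rik overlapped a wide 5′ UTR peak assigned to Zfp981, which had 19 and -3.75. Igsf9b, Eva1c and Mrgpra6, described above, completed the 10.

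The 125 peaks under a fold enrichment of 5 had a median of 2.30, a median of 390 exonic nt, and the same median log10 p as all wide peaks, -5.13. A single intron lay inside in 45 of the 118 with a coding transcript (38.1%), against 121 of 1029 (11.8%) of all wide peaks with one. Among them, and chosen after their values were seen, were Ets1, a transcription factor required for NK cell development, with 2.51 and a log10 p of -20.3, and Sh2d1a, the adaptor SAP of SLAM receptors, with 1.74 and -13.2. Others were the small GTPase Rap1a with 3.88 and -41.3, the tetraspanin Cd82 with 2.84 and -36.0, the peptidoglycan recognition protein Pglyrp1 with 2.27 and -51.5, and the proteasome subunit Sem1 with 2.07 and -103. Rnaset2a and Rnaset2b, a pair of near-identical genes, had 2.82 and 1.77, and their values are uncertain for that reason.

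For 903 of the 1059 peaks (85.3%) both ends lay in exons of the assigned gene, with a median fold enrichment of 20.9. For 140 (13.2%) they lay in exons of 1 other gene, which was protein-coding in 81, and the median was 13.3. For 16 no single gene had exons at both ends. Of all wide peaks 97.4% were assigned to protein-coding genes, and of the 28 that were not, 21 had their ends in another gene. In 432 spans (40.8%) at least 1 other annotated gene lay wholly inside, and in 67 at least 1 that was protein-coding. The gene named for a wide span is therefore not always the one whose exons bound it.

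In 14 peaks the first and the last base lay in exons of different protein-coding genes. Their fold enrichments had a median of 2.21 and ran from 1.65 to 36.0, 10 were under 5, and 11 had a p under 0.001. A fold enrichment of at least 5 was reached by 34.6% of all distinct peaks and 88.2% of all wide peaks. A p under 0.001 was found in 61.5% and 65.1%. For 12 of the 14 the annotation had a further gene with exons at both ends. The span assigned to Zbtb11, a zinc finger protein, at chr16:55966372-55980721, had its other end in an exon of Rpl24, a ribosomal protein, and both ends lay in exons of the gene model Gm28037. An overlapping peak assigned to Rpl24 itself had 3.67 (log10 p -605), beside 3.53 (log10 p -615). In the same way the span of Popdc2 (2.04, log10 p -65.1) had an end in Cox17, that of Armc9 (2.02, -23.4) in Psmd1 and that of Dnhd1 (1.65, -14.3) in Timm10b. The span of Il10rb (1.72, -35.1), a receptor chain for IL-10 and related cytokines, had an end in Ifnar2, a chain of the type I interferon receptor. The spans assigned to Mgat2 (1.90, -81.4) and Rbks (2.18, -86.4) had neither end in an exon of the assigned gene. The first ran from Rpl36al to an exon shared by Dnaaf2 and Gm49384, and the second from Mrpl33 to Babam2. Which of the joined genes the fragments came from cannot be told apart in the list.

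Most genes with a wide 5′ UTR peak had no other peak. Of the 1046 genes, 289 (27.6%) had at least 1 other peak, not counting a second wide 5′ UTR peak, which 13 genes had. Of all genes with a peak 40.2% had 2 or more of any kind, so the 2 shares are not quite the same measure. The share was 4.11% (21 of 511) where the span held 90% or more of the exonic length, which leaves little of the gene outside it, 40.3% at 10 to under 90% and 70.2% (120 of 171) under 10%. It was 71.0% for genes with a wide peak of fold enrichment under 5 and 21.8% for those at 5 or more. Of the 577 other peaks, 378 had the label 3′ UTR. In Ets1 3 further peaks lay in the 3′ UTR, with fold enrichments of 6.46, 2.37 and 1.34. In Cd82 a 3′ UTR peak had 10.6 with a log10 p of -283, and in Psap, Itm2b, Basp1 and Papola 3′ UTR peaks had fold enrichments of up to 2.32, 2.05, 4.83 and 2.20. Of the 1059 spans 162 (15.3%) overlapped some other peak, 82 one of the same gene, 104 one of another gene and 41 another wide 5′ UTR peak, and merging these left 1038 separate loci.

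Wide 5′ UTR peaks were found in 8.47% of genes with a peak, and the share moved with the length of the gene. Part of this follows from the choice of spans over 10000 nt. A gene of up to 10000 nt cannot hold such a span between its own exons. It was 1.32% for genes of up to 10000 nt, 9.09% up to 50000 nt, 11.2% up to 100000 nt, 22.1% up to 500000 nt and 52.4% for longer genes. Of the 73 genes listed as neuronal adhesion and synapse genes, whose median length was 910303 nt, 37 had a peak and 30 of these (81.1%) a wide 5′ UTR peak, and the part of gene length in this share was not tested. All 30 had a fold enrichment of at least 5, beside 88.2% of all wide peaks, with a median of 36.95, and 25 spans held 90% or more of the exonic length. The list, chosen with earlier results known, also held genes that are not adhesion or synapse genes by name, among them Stox2 and the phosphodiesterase Pde4d. Without Stox2 and Pde4d 28 of 35 genes with a peak had a wide one, with fold enrichments from 9.48 to 241 and the same median. Others of that kind, such as Fgf14, were kept in this count. Besides those already named, Dpp10, a modulator of potassium channels, had 91.0 with a log10 p of -80.1, Opcml, an adhesion protein, 106 with -24.4, Ptprg, a receptor phosphatase, 53.1 with -55.0, and Grin2a, an NMDA receptor subunit, 79.7 with -28.0.

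Of 1479 chemosensory receptor genes, which have short coding sequences and sometimes far upstream first exons, 111 had a peak and 19 of these (17.1%) a wide 5′ UTR peak. The share was 8.47% over all genes with a peak. The median length of the 1479 genes was 6302 nt, but most of these had no peak. It is therefore not the length of the 111 behind the share. The 8 receptor genes with the most negative log10 p were longer than 10000 nt, in the class of up to 50000 nt with a share of 9.09%. The part of gene length in the 17.1% was not tested. In all 19 the span held 90% or more of the gene's exonic length. The median fold enrichment was 62.6 with a range from 9.48 to 334, and all were at 5 or more, beside 88.2% of all wide peaks. After Olfr1346, Olfr1219 had 235, Olfr1330 207, Olfr1226 121 and Olfr1440 108, over 10487 to 14306 nt for the 8 with the most negative log10 p. Olfactory receptors resemble one another in sequence, which leaves the assignment of reads between copies uncertain.

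In the lists of lymphocyte, chromatin and m6A machinery genes the shares ran from 4.55% to 7.55%, below the 8.47% of all genes with a peak, by a few genes each. The median gene length was 83008 nt for lymphoid transcription factors, 70038 nt for signalling genes and 92580 nt for chromatin regulators. These lie in the length class with a share of 11.2%. For m6A machinery genes it was 31545 nt, in the class with 9.09%. The differences were not tested. Among lymphoid transcription factors 4 of 53 genes with a peak (7.55%) had one. These were Ets1, Elf1 with 2.11 (log10 p -12.5), Zeb1, a zinc finger repressor, with 6.95 (-3.03), and Tcf4, an E protein, with 49.3 (-10.8). The spans of Ets1 and Elf1 held 2 and 1 exons of the coding transcript. That of Zeb1 touched 1 exon, held 108 exonic nt of the gene and had both ends in exons of Gm10125. That of Tcf4 touched no exon of the longest coding transcript. Among kinases, phosphatases and adaptors of lymphocyte signalling 3 of 64 genes had one, Map3k1 with 9.48 (-1.69), Tsc1, a brake on mTOR, with 7.59 (-1.63) and the exchange factor Vav3 with 6.64 (-2.00). Among chromatin regulators there were 3 of 54, the cytosine oxidase Tet1 with 17.1 (-3.33), the histone methyltransferase Ezh2 with 7.59 (-1.64) and the remodeller Smarca2 with 3.79 (-1.34). Like that of Tcf4, the spans of Vav3 and Smarca2 touched no exon of the longest coding transcript. Among genes of the m6A machinery there was 1 of 22, the reader Igf2bp1 with 19.0 (-3.75), whose span held all 15 exons.

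Markers of the sorted cells and of other blood cells were read in the same way. All 11 NK cell markers, among them Ncr1, Eomes and Gzmb, had a peak and none a wide 5′ UTR peak. Their median length was 7921 nt, in the class where 1.32% of genes with a peak had one, so a count of 0 lay near the background. Of 6 B cell markers 4 had a peak and 1 a wide one, Ebf1, a B cell transcription factor, with 125 (log10 p -28.9) over all 16 exons and 390775 nt. Of 6 T cell markers 4 had a peak and 1 a wide one, Cd3e, a CD3 subunit of the T cell receptor complex, with 30.3 and -6.35 over all 8 exons. The share was 8.47% over all genes with a peak, 22.1% in the length class of Ebf1 and 9.09% in that of Cd3e. Counts of 1 of 4 are too small to set cell types apart. All 6 myeloid markers and 3 of 6 markers of erythroid cells and platelets had a peak, and none of these had a wide one. The list gives no level of a transcript in the input, so how much RNA of other cells the libraries held was not tested.

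**Figure D5:**
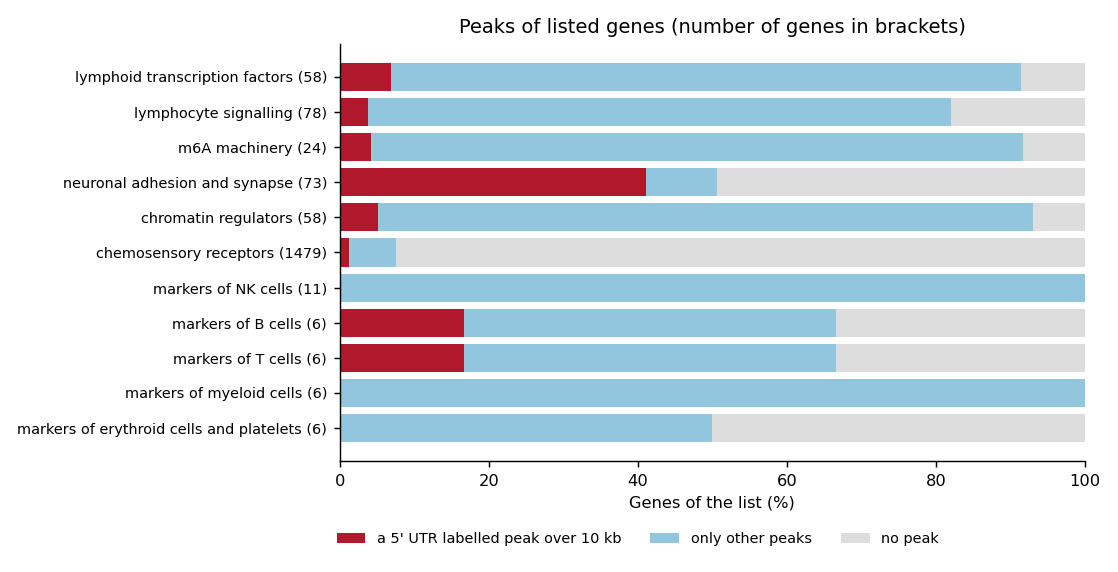
Share of the genes of each list, in percent, with a 5′ UTR labelled peak over 10 kb (red), with only other peaks (blue) and with no peak (grey), and the number of genes in brackets. The bars are over all genes of a list, with or without a peak. Of 73 genes listed as neuronal, with a median length of 910303 nt, 30 have a wide 5′ UTR peak. These are 81.1% of the 37 that have any peak. None of the 11 NK cell markers, with a median length of 7921 nt and all with a peak, has a wide one. Of genes with a peak, 52.4% of those longer than 500000 nt and 1.32% of those of up to 10000 nt have a wide one.

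In 13 genes there were 2 wide 5′ UTR peaks, and in all of them but Svep1 at least 1 span had its ends in another gene. Ctcfl, a testis paralogue of the insulator protein CTCF, had 114 (log10 p -80.5) over all 11 exons, and 17.1 in a span with its ends in Ctcflos. Tbx3, a T-box factor, had 15.2 over all 7 exons and 47.4 over 101236 nt between exons of Tbx3os1. Ctcf itself had 20.9 and 5.69, both with ends in other genes. Svep1 and Tnrc6a had 30.3 and 19.0, and 17.1 and 5.69. The pair of Ugt2a2 spans had 72.1 and 60.7 with ends in its near relative Ugt2a1 and in Gm43638, so their assignment is uncertain. The others were Akap1, C130026I21Rik, Dgcr6, Fam196a, Gm28044, Lmo3 and Myh14.

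The 3 peaks nearest to the width threshold on each side are given here, and they are too few to compare the sides. Just above it lay Myh14 (10003 nt, fold enrichment 9.48, log10 p -1.69), Cdk19 (10036 nt, 9.48, -5.56) and Mgat2 (10085 nt, 1.90, -81.4). Just below it lay Gm38944 (9991 nt, 9.48, -2.75), Olfr259 (9990 nt, 51.2, -11.2) and Rnf114 (9981 nt, 9.48, -1.69).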

How the data were processed

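Per the labels, poly(A) RNA of splenic NK cells was fragmented and part was pulled down with an m6A antibody, in 2 immunoprecipitates and 2 inputs. The authors aligned, per the study's methods, the reads to the mouse genome with HISAT2, called peaks with exomePeak and annotated them with ChIPseeker. The deposited fold enrichment is a ratio of immunoprecipitate over input made by the authors. The deposited significance is a score, the log10 of the unadjusted peak-calling p-value, and the deposited width counts genomic bases with introns. How the replicates were combined is not given in the sources used here, and 0 columns held a value per sample, so no test was run.

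Of 20751 rows 24 were exact repeats, which left 20727 distinct peaks. Spans were compared with GENCODE M21 gene models of GRCm38, the build of the files. Exonic length is over merged exons of the gene, and codons, introns and regions are from its longest coding transcript. Sequences came from the RefSeq sequence of GRCm38. Shares have 95% Wilson intervals. Python 3.11.15, pandas 2.3.3, NumPy 2.4.6 and SciPy 1.17.1 were used, and the structure code was checked on simulated data.

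The wide peaks, gene lists and alternatives were chosen with earlier results of these data known. Named genes are the 10 widest peaks, the 10 with the highest fold enrichment, the 10 with the most negative log10 p, up to 8 of each list, genes with 2 such peaks, and the 3 peaks on each side of the width threshold. Other named genes were chosen after their values were seen. Values of 1 listed group of genes and of 1 of the 10 widest peaks are not reported here.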

Additional observations from a re-analysis of the deposited data

How the results depend on the processing

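The 8 main values were recomputed under 46 alternatives, of which 28 left a value within its limits (1.5 times for a count, its 95% interval otherwise). With a peak p under 0.001 there were 689 peaks with a median fold enrichment of 36.0 and 87.8% with the start codon inside, and with the centre of the exonic part in the 5′ UTR there were 162. With a width over 20000 nt the median fold enrichment was 22.8, 93.1% reached 5 and 87.7% held the start codon, and with a width over 5000 nt 83.9% reached 5. The median was 22.8 among peaks of at least 5, by construction. The share past the threshold was 91.8% at 3 and 74.6% at 10. With both ends in exons of the assigned gene, an alternative added after seeing the data, 90.1% reached 5, 87.4% held the start codon, the median exonic length was 3171 nt and the median longest intron 13666 nt (0 where the span held none). The start codon of any coding transcript lay inside in 90.3%, exons of the longest coding transcript alone gave a median of 1890 nt, and GGAC in place of DRACH gave 3.79 sites per kb.

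No paired analysis was possible because the list holds no value per sample. For the same reason no replicate was left out in turn, and the transcript named in the file was not tried in place of the longest coding transcript, since the 5′ UTR label names none. The depth of the libraries, the spread between replicates and the abundance of each transcript in the input are unknown, so the error of each fold enrichment is not given.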
